A study of Homo sapiens with 26 samples.

Results

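Ribosome footprints were measured next to the endoplasmic reticulum (ER) of HEK293T cells, a human embryonic kidney line, and compared gene by gene with footprints of the whole lysate. Each biotinylated pulldown was set against the total input of its own lysate, in 2 replicate lysates, which gave 4 of the 26 libraries of the study. Genes were taken where an entry named 1 gene and held at least 64 footprints in its coding sequence in both total inputs, and 7381 of the 57770 entries for 1 gene passed. In these cells the ribosomal protein RPL29, part of the large subunit, carried the Avi tag at its own locus, and the line was grown from a single sorted cell. LOV-BirA, a biotin ligase that blue light switches on, was fused to Sec61β and expressed from a lentivirus under the SFFV promoter in a sorted, polyclonal population. Cells received cycloheximide (CHX), which halts elongating ribosomes, then biotin and blue light, total inputs and pulldowns alike. Libraries with LOV-BirA free in the cytosol, or at the outer mitochondrial membrane (OMM) through the transmembrane domain of OMP25, came from the same RPL29-Avi background and treatment and serve here as comparisons. The study's methods give the EF1α promoter for LOV-BirA fusions other than the ER one, so promoter and location differ together.

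Most secreted and membrane proteins are made by ribosomes docked on the ER. The signal recognition particle (SRP) binds a hydrophobic signal peptide or the first transmembrane segment as it leaves the ribosome, and the ribosome is handed to its receptor and to the Sec61 channel. Tail-anchored proteins carry their only membrane segment at the C-terminus, which leaves the ribosome once translation has ended, and they are inserted afterwards by other factors. Sec61β, the carrier of the ligase, is itself a tail-anchored subunit of the Sec61 channel.

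The 2 total inputs held 12782307 and 6460934 footprints in coding sequences and the 2 pulldowns 19539527 and 11799517. Levels are given as CPM, a gene's coding footprints scaled to an equal coding total in every library, and enrichment is the fitted log2 ratio of pulldown to total input on that scale. Across the 7381 genes, which are not independent replicates, the log2 ratios of the 2 lysates correlated with Pearson's r = 0.978 (Spearman's rho = 0.911), and their difference had an SD of 0.24. Counts over whole exons, used beside those over coding sequences after the data were seen, are quoted beside the single genes whose value they moved by over 0.4 or whose call they altered, and beside a few others. Nothing in the labels places the 2 lysates in separate experiments beyond the replicate number. The p-values and SEs rest on a spread shared by the ER, OMM and cytosolic lysates and drawn towards that of other genes. They are not the spread of the 2 ER lysates alone, and they do not reach beyond the lysates used. Of 5 genes used as HEK293T markers, 4 exceeded 1 CPM in both total inputs, all but LHX1, and none of 7 markers of liver, blood, endothelium or muscle did, with a summed level of 0.619 to 1.41 CPM. At the lower limit, 192 genes with 64 to 70 footprints in the shallower total input had median log2 ratios of -0.67 and -0.64 in the 2 replicates, and 244 genes just below it, with 57 to 63, had -0.54 and -0.44.

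The sequences below code for the hydrophobic stretches on which the results turn, 10 codons each from GENCODE 44 transcripts on GRCh38, and each lies within 1 coding exon. Capitals mark codons with T in the middle position, which encode phenylalanine, leucine, isoleucine, methionine or valine. The first 3 belong to secreted or ER lumenal proteins that were enriched, from collagen IV chains α1 (COL4A1, residues 9 to 18, chr13:110306974-110307003, minus strand) and α2 (COL4A2, residues 17 to 26, chr13:110308073-110308102, plus strand) and from the ER chaperone calreticulin (CALR, residues 7 to 16, chr19:12938698-12938727, plus strand). The next 2 also start proteins of the secretory pathway, yet their genes were depleted: collagen I chain α1 (COL1A1, residues 9 to 18, chr17:50201460-50201489, minus strand) and the oligosaccharyltransferase subunit OST4 (residues 14 to 23 of 37, chr2:27071394-27071423, minus strand). The last 5 are segments far from the start, from the tail anchors of VAPB (residues 225 to 234 of 243, chr20:58444176-58444205, plus strand), SEC61B (residues 73 to 82 of 96, chr9:99230350-99230379, plus strand) and TMPO (residues 417 to 426 of 454, chr12:98547742-98547771, plus strand), and from the first strong segments of the calcium channel ITPR1 (residues 2326 to 2335 of 2758, chr3:4800469-4800498, plus strand) and the nucleoporin NUP210 (residues 1809 to 1818 of 1887, chr3:13319255-13319284, minus strand).
COL4A1: CTGCTGCTGCTGcccgccgccCTTCTGCTC
COL4A2: CTGCTGCTGgggacaGTGaccGTGgggTTC
CALR: CTGCTGCTCggcCTCCTCggcCTGgccGTC
COL1A1: CTCCTGCTCCTCTTAgcggccaccgccCTC
OST4: CTGggcGTGtcgCTCTTCTTGCTTGTCGTT
VAPB: TTGgctCTGGTGGTTTTGTTCTTTATCGTT
SEC61B: GTATTGGTTATGagtCTTCTGTTCATCgct
TMPO: ATTTTGCTGTTTGTTGTTGTGgcaGTTTTT
ITPR1: CTCATCtctCTGgccATCGTCATTgccCTC
NUP210: GTCATGTTCTTCacgCTCTTCgccCTGTTG

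Genes of the secretory pathway were the most enriched in the ER pulldowns. In lists of secreted, ER lumenal, GPI-anchored, lysosomal, receptor, Golgi, multi-pass, hairpin and translocon proteins 87.5% to 100% of members were enriched, with list medians of 3.10-fold to 4.94-fold. Tail-anchored, mitochondrial and soluble proteins lay near the bulk of all genes. Of the 7381 genes, 1465 (19.8%) were enriched and 5321 (72.1%) depleted at an adjusted p below 0.05 in edgeR's quasi-likelihood test with Benjamini-Hochberg adjustment. Both pulldowns lay above both total inputs for 1489 genes and below them for 5305, and the groups overlapped for 587. The large number of depleted genes depends on the scale. With library totals the median gene stood at -0.68, and 21.6% of called genes were enriched. With TMM scaling, which centres the bulk of the genes, the median was -0.02, 2190 genes (29.7%) were enriched and 1800 (24.4%) depleted, and 54.9% of called genes were enriched, with 245 genes called in opposite directions by the 2 scales. Groups are therefore described against the median of -0.68.

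Structural classes were built from 1 reference protein per gene by Kyte-Doolittle hydropathy, with a 10-residue stretch near the N-terminus (signal peptide or signal anchor) and 19-residue segments further in (transmembrane candidates, strong at a mean of at least 2.0, weak from 1.6). Single-pass proteins with an N-terminal stretch were the most uniform, with 209 of 211 genes enriched and a median log2 of 2.18, a 4.52-fold ratio. The secreted or lumenal class, an N-terminal stretch and no strong segment, had 335 of 373 enriched and 26 depleted with a median of 1.97. The multi-pass class had 482 of 527 enriched, 35 depleted and a median of 1.77, and single-pass proteins with an internal segment but no N-terminal stretch had 92 of 141 enriched, 35 depleted and a median of 1.5. In these 4 classes together, 10% and 10.8% of the coding footprints of the 2 total inputs became 38.3% and 36.8% of the 2 pulldowns. A log2 above 1 was reached by 83.5% of their 1252 genes, against 16.9% of all genes.

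**Figure D1:**
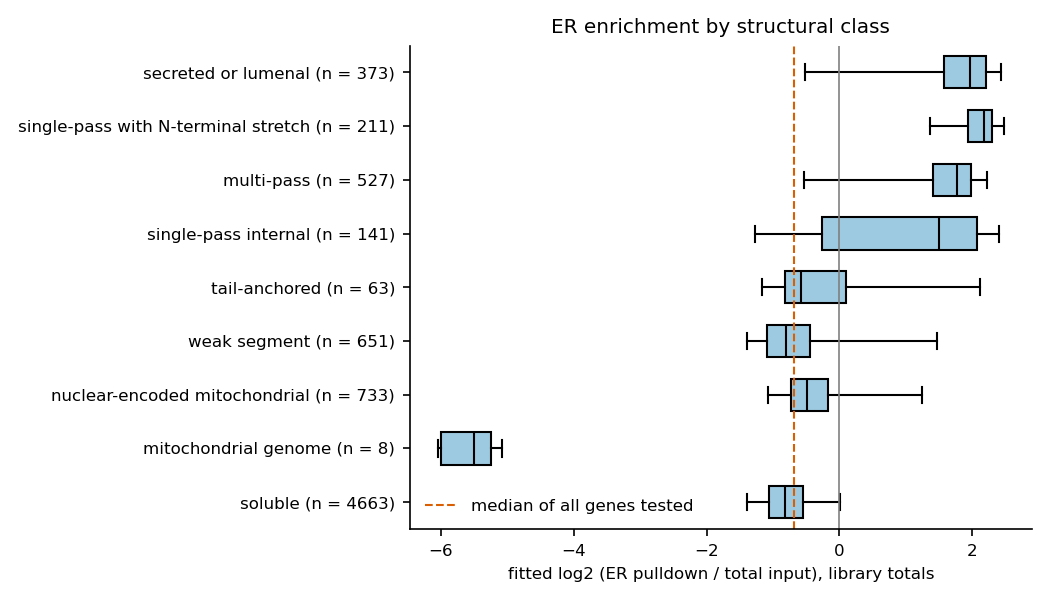
Fitted log2 ratio of ER pulldown to total input by structural class, with boxes from the lower to the upper quartile, black lines at the median and whiskers from the 5th to the 95th percentile of genes. The 4 upper classes have medians of 1.5 to 2.18, while the tail-anchored, weak segment, nuclear-encoded mitochondrial and soluble classes sit around the dashed line at the median of all genes, -0.68.

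The remaining classes lay near the bulk. The tail-anchored class, set by hydropathy alone, had a median of -0.57, only 0.11 above that of all genes. Of its 63 genes 44 were depleted under library totals but 9 under TMM. Proteins with weak segments alone had a median of -0.80 (63 of 651 enriched and 515 depleted), nuclear-encoded mitochondrial proteins -0.48 (103 of 733 enriched and 496 depleted) and the soluble class -0.81 (164 of 4663 enriched and 4152 depleted). Under TMM the mitochondrial class held more enriched than depleted genes, 286 against 61 of 733, and most were not called. Its median was then 0.18, and 29.7% of all genes were enriched on that scale. All 8 tested genes of the mitochondrial genome, read by the organelle's own untagged ribosomes, were depleted with a median of -5.51.

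The ER enrichment was not shared by free LOV-BirA. In the cytosolic libraries the median log2 ratio was -0.01 for secreted or lumenal proteins and -0.06 for single-pass proteins with an N-terminal stretch, beside 0.02 for all genes. Over the 6809 genes with enough footprints for that comparison, 1335 (19.6%) were higher at the ER and 4271 (62.7%) lower, again with library totals. The median difference was -0.66, and each gene was tested against 0. The higher ones included 314 of 349 secreted or lumenal, 191 of 193 single-pass and 426 of 471 multi-pass genes. Against the OMM, 1239 of 6675 genes were higher at the ER (18.6%) and 2072 lower (31%), and the lower ones included 434 of 682 nuclear-encoded mitochondrial genes.

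Secreted and ER lumenal proteins were among the highest. COL4A1, a basement membrane collagen, had 167 and 131 CPM in the total inputs and 1142 and 634 CPM in the pulldowns. HSPA5, the lumenal Hsp70 chaperone BiP, went from 938 and 1026 CPM to 5672 and 5364 CPM, and CALR from 2220 and 2010 CPM to 9648 and 7788 CPM. For all 3 genes both pulldowns lay far above both total inputs, with log2 enrichments of 2.53 ± 0.12, 2.49 ± 0.10 and 2.04 ± 0.09 (fitted value from 2 ER lysates ± SE from the shared spread).

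Of 49 secreted and matrix proteins tested, 48 were enriched with a list median of 2.28. The highest were the heparan sulfatase SULF1 (2.57), COL4A1 (2.53) and COL4A5 (2.53). The lowest enriched members were B2M, the β2-microglobulin light chain of 119 residues, at 1.37 (1.79 by exon counts) and the angiogenic factor VEGFA at 1.59 (0.80 by exon counts). All 42 ER lumenal folding and redox proteins were enriched (median 2.2), as were 59 of 59 single-pass receptors and adhesion proteins (2.25), 11 of 11 GPI-anchored proteins (2.3) and 29 of 29 lysosomal hydrolases (1.98). Among receptors and adhesion proteins the neuroglycan CSPG5 (2.73), the immunoglobulin family protein BSG (2.73, or 2.32 by exon counts) and HEG1 (2.66) were highest.

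COL1A1 was the exception among secreted proteins. It had 59.0 and 51.6 CPM in the total inputs and 27 and 26 CPM in the pulldowns, so the groups did not overlap and both pulldowns were lower. Its log2 ratio was -1.07 ± 0.12 (edgeR adjusted p = 2.73e-07), and it remained below 0 with TMM, at -0.40. In the cytosolic pulldowns it stood at 0.32. The difference from the ER was -1.39 (95% interval -1.73 to -1.04), beside a median of -0.66 over all genes compared. The COL1A1 stretch of hydropathy 2.75, printed above, lies close to the 2.86 of COL4A1. The deposited coding length of COL1A1 is 102% of the reference.

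Other lists of membrane proteins moved likewise. Type II Golgi glycosyltransferases, which are anchored by a single N-terminal segment, had 31 of 32 enriched with a median of 1.96, and the mannosidase MAN1B1 (0.26 ± 0.20) was not called, although exon counts placed it at 1.64. Proteins that shape the ER with membrane hairpins, such as reticulons and REEPs, had 20 of 20 enriched with a median of 1.71, from the fusion GTPase ATL3 (0.41) to REEP2 (1.97). Of 89 multi-pass transporters, channels and receptors 85 were enriched (median 1.88), led by the Wnt receptor FZD2 (2.41) and LGR4 (2.38), a receptor for R-spondins. Membrane-bound transcription regulators, which are released from the ER by cleavage or act there as stress sensors, had 7 of 7 enriched, from NFE2L1 (2.27) and the sensor kinase ERN1 (2.06) down to SREBF1 (0.57) and CREB3L2 (0.30), which exon counts placed at 1.44 and 0.89.

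Complexes that straddle the membrane were split by subunit. All 7 membrane subunits of the V-ATPase, the proton pump of lysosomes and other organelles, were enriched with a median of 1.54. Of the 7 tested subunits of its cytosolic sector none was enriched (2 under TMM), with a median of -0.66. Peroxisomal membrane proteins had 6 of 7 enriched with a median of 0.98, whereas none of 19 peroxisomal matrix proteins and soluble peroxins was, with a median of -0.84.

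**Figure D2:**
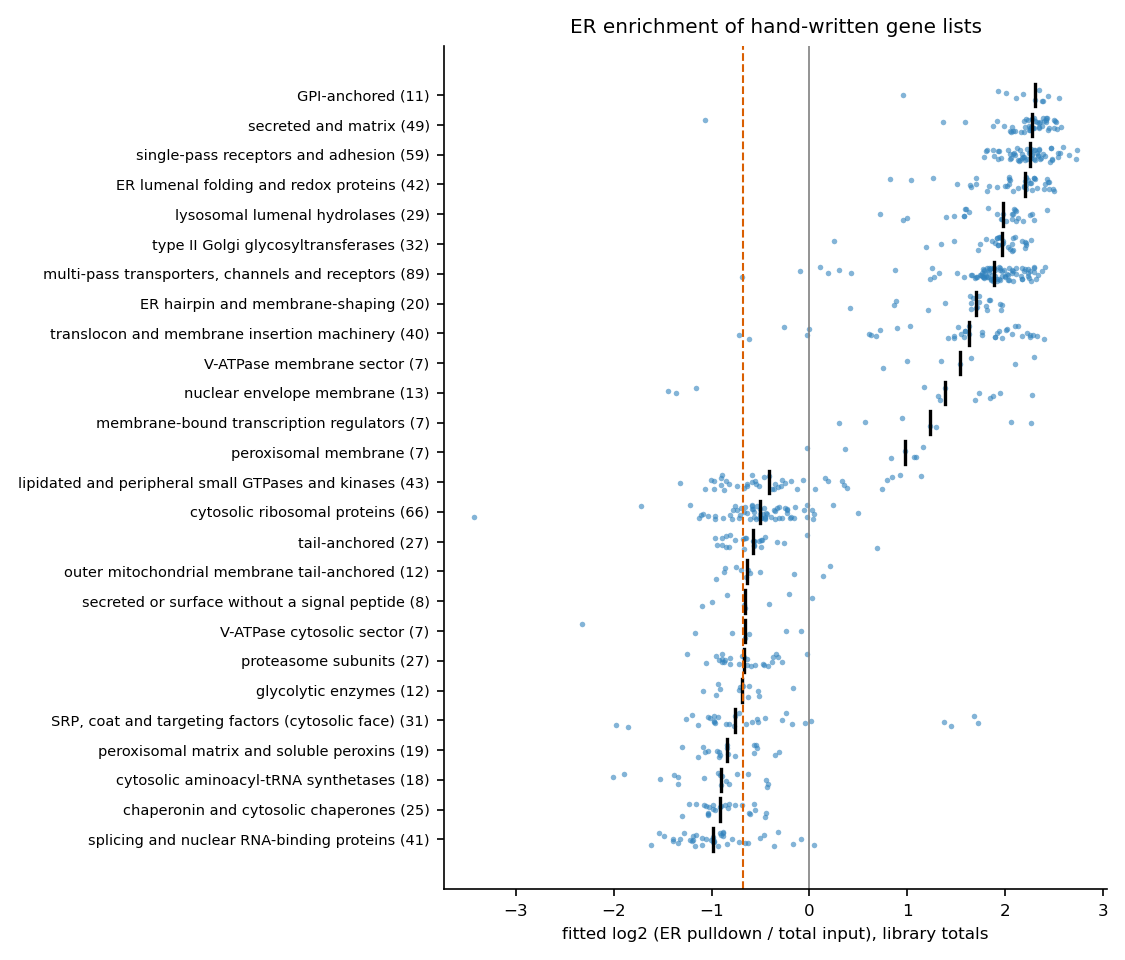
Fitted log2 ratio of ER pulldown to total input for the members of 26 hand-written gene lists (points), with black bars at the list medians, the dashed line at the median of all genes and the number tested in parentheses. GPI-anchored, secreted and receptor lists lie above 2, while tail-anchored and cytosolic lists lie around -0.68 with a few separate members.

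The machinery of the ER itself followed the same split. Of 40 genes for the translocon, signal peptidase, oligosaccharyltransferase and membrane insertion complexes, 35 were enriched and 3 depleted with a median of 1.63. SEC61A1, the channel of the Sec61 complex, had 282 and 395 CPM in the total inputs and 1403 and 1806 CPM in the pulldowns, a log2 enrichment of 2.25 ± 0.12. The oligosaccharyltransferase subunits RPN2 (2.40) and DDOST (2.33), which have an N-terminal stretch, stood highest. OST4 of the same complex also has such a stretch but was depleted. In the ER membrane complex EMC, a membrane insertase, the membrane subunits EMC7 (2.29), EMC1 (2.23) and EMC3 (2.13) were enriched, and EMC10 at 0.61 (2.18 by exon counts). EMC2 (-0.62) and EMC8 (-0.26), which form its cytosolic cap, were depleted under library totals, and stood at 0.04 and 0.40 with TMM. EMC9, a paralogue of EMC8, was at -0.01 ± 0.18.

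OST4 was the only other depleted gene of the list. It had 279.8 and 194 CPM in the total inputs and 161 and 124 CPM in the pulldowns, which did not overlap. Its log2 ratio of -0.72 ± 0.10 was near the median of all genes, with -0.07 under TMM (edgeR adjusted p = 0.593), and did not differ detectably from the -0.61 in the cytosolic libraries (difference -0.11, 95% interval -0.41 to 0.18). The median difference over all genes compared was -0.66, below that interval. At the OMM the same gene was at 1.57. Other short membrane proteins were enriched at the ER but low for their class, namely TMEM258 (79 residues, 0.68 at the ER and 1.87 at the OMM, with 1.22 at the ER by exon counts) and TMEM167A (0.75, but -0.10 and not called by exon counts). In the secreted or lumenal class the median was higher in longer proteins, from 0.87 under 100 residues (8 genes) to 1.62 from 100 to below 200 (32 genes), 1.9 from 200 to below 400 (128 genes) and 2.08 at 400 or more (205 genes).

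Targeting and coat factors on the cytosolic face stood near the bulk, with 4 of 31 enriched, 24 depleted and a median of -0.76 (9 enriched and 10 depleted under TMM). Of the SRP protein subunits, SRP54 (-0.77) and SRP14 (-0.52) lay there, while SRP72 (-0.18 ± 0.10) and SRP9 (-0.04 ± 0.12) stood higher, called enriched under TMM (0.48 and 0.61) but not with library totals. The receptor for SRP was enriched: SRPRA, its α subunit, had 222 and 234 CPM in the total inputs and 755 and 754 CPM in the pulldowns, a log2 enrichment of 1.73 ± 0.09 with no overlap. The β subunit SRPRB, which holds a membrane segment, was at 1.75. UFL1, the ligase that attaches UFM1 to ER-docked ribosomes, rose from 76.8 and 109 CPM to 221 and 393 CPM (1.69 ± 0.11). SAR1A (1.45) and SAR1B (1.37), the GTPases that start COPII coats, were the remaining enriched members, and their differences from the cytosolic libraries were 1.34 and 1.68. SEC24A, a subunit of the COPII coat that SAR1 recruits, was at -1.26 and COPA, a subunit of the COPI coat, at -0.28.

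Small GTPases and lipidated kinases, which reach membranes through lipids, had 8 of 43 enriched and 26 depleted with a median of -0.41. The enriched share, 18.6%, was near the 19.8% of all genes. Under TMM 19 were enriched and 6 depleted, where 29.7% of all genes were enriched. Enrichment was found for ARF5 (1.14), ARF1 (0.92) and ARF4 (0.80), GTPases of the early secretory pathway, and for the kinase YES1 (0.85). ARF1 had 1354 and 1386 CPM in the total inputs and 2566 and 2631 CPM in the pulldowns, with no overlap. The lowest were GNAS (-1.33), the α subunit of the stimulatory G protein, RALB (-1.07) and RAB11A (-1.01). By exon counts GNAS stood at -0.28, which is 0.37 above the median of all genes, and RAB11A 0.01 above it.

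The level also varied with the place of the first strong segment in the protein, mainly in the multi-pass class. These segments are hydropathy calls, and the lowest value of the last bin below, -1.79, belongs to MDN1, a ribosome assembly ATPase. With a strong limit of 2.2 the enriched share rose from 91.5% to 96.8% (multi-pass) and from 65.2% to 80.9% (single-pass internal). How far proteins without a membrane segment lower the late bins was not tested. Among 582 genes with a strong segment and no N-terminal stretch, the median was 1.86 where the segment started at residues 37 to 45 (55 genes), 1.73 at 46 to 100 (140 genes), 1.68 after 100 and up to 200 (142 genes), 1.32 after 200 and up to 400 (127 genes) and 0.07 beyond 400 (118 genes). For multi-pass proteins alone it was 1.84 in the first of these bins and -0.27 in the last, where 26 of 57 genes were enriched and 27 depleted. Single-pass proteins with an internal segment did not follow that order, with medians of 2.03, 1.74, 0.78, 0.50 and, beyond residue 400, 1.87 (27 of 45 enriched and 14 depleted). Counted from the other end, genes with at most 20 residues after the segment had a median of -0.57 (62 genes). With 21 to 40 residues it was 1.29 (30 genes), and with more than 200 it was 1.76 (335 genes).

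**Figure D3:**
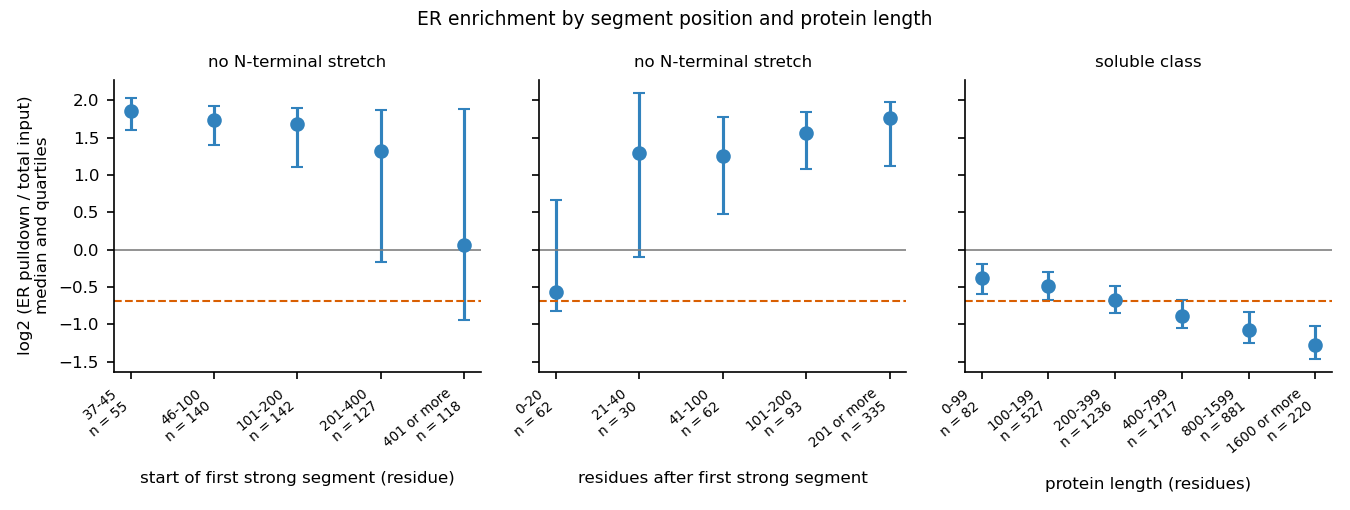
Median fitted log2 ratio with quartiles (bars) by the residue where the first strong segment starts and by the number of residues after it, both for proteins without an N-terminal stretch, and by protein length for the soluble class. The median goes from 1.86 to 0.07 with later segments, from -0.57 to 1.76 with more residues after the segment, and from -0.38 to -1.27 with length in soluble proteins. Segments are called by hydropathy alone, so some may not span a membrane.

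The inositol trisphosphate receptors, calcium channels of the ER whose pore lies at the end of a very long protein, were the lowest of the multi-pass list. Their first strong segments start at residues 2317 (ITPR1), 2262 (ITPR2) and 2238 (ITPR3), with 423, 421 and 415 residues still to come. ITPR1 had 14.1 and 21.2 CPM in the total inputs and 8.14 and 14.2 CPM in the pulldowns, so the groups overlapped, and its log2 ratio of -0.69 ± 0.17 (edgeR adjusted p = 0.00101) lay at the median of all genes, with -0.03 under TMM. By exon counts it stood at 0.07 and was not called (edgeR adjusted p = 0.589). ITPR2 was at -0.10 ± 0.14 and ITPR3 at 0.10 ± 0.16, neither called under library totals and both above 0 under TMM at 0.56 and 0.76. Exon counts gave 0.27, which was called, and 0.14, which was not. The differences of ITPR2 and ITPR3 from the cytosolic libraries, 0.04 ± 0.20 and 0.22 ± 0.22, did not pass the test against 0. Both lay above the median difference of -0.66 over all genes compared.

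NUP210, a nucleoporin with its strong segment at residue 1809, differed from them in having an N-terminal stretch (mean hydropathy 2.93). It had 340.3 and 338 CPM in the total inputs and 1881 and 1434 CPM in the pulldowns, a log2 enrichment of 2.28 ± 0.13 with no overlap. The adhesion receptors ADGRV1 (segment at residue 5913, enrichment 2.3) and CELSR1 (residue 2475, 1.88) also carry such a stretch. SREBF1 and SREBF2, transcription factors with segments from residues 548 and 540 and no stretch, lay in between at 0.57 and 1.3. RTN3 and RTN4 were enriched at 1.65 each although the reference proteins place the first segment at residues 865 and 1019, and both genes also make far shorter proteins.

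Nuclear envelope membrane proteins differed among themselves. Of 13 tested 10 were enriched, with the lamin B receptor LBR (first segment at residue 215) at 1.32 and LEMD3 (residue 473) at 1.73. The 3 depleted ones hold their first strong segment near the C-terminus, with 32, 32 and 25 residues after it: SYNE1 (-1.45) and SYNE2 (-1.36), giant linkers to the cytoskeleton, and TMPO (-1.16), the lamina-associated protein LAP2. TMPO had 845 and 839 CPM in the total inputs and 351 and 406 CPM in the pulldowns, both well below. The gene also makes the isoform LAP2α, which lacks the segment, and its deposited coding length is 179.5% of the reference. Under TMM the 3 genes remained depleted, at -0.79, -0.71 and -0.50.

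Tail-anchored proteins with known C-terminal anchors formed a list of 27 tested genes, of which 1 was enriched and 24 were depleted under library totals, while under TMM 3 were enriched and 1 depleted. Their median, -0.57, was 0.11 above that of all genes. VAPB, an ER protein at membrane contact sites, had 105 and 128 CPM in the total inputs and 57.0 and 61.7 CPM in the pulldowns (-0.96 ± 0.11), and its paralogue VAPA was at -0.85. The SNARE proteins SEC22B (-0.95) and VTI1A (-0.89) followed. The ubiquitin-conjugating enzyme UBE2J1 of the ER (-0.81) and the nuclear membrane protein emerin, EMD (-0.85, or -0.42 by exon counts), were in the same range. Tail-anchored proteins of the OMM had 0 of 12 enriched (3 under TMM) and a median of -0.64.

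SEC61B was the single enriched tail-anchored gene of the list. It had 52.15 and 60.7 CPM in the total inputs and 73.3 and 114 CPM in the pulldowns, a log2 enrichment of 0.69 ± 0.13 without overlap (edgeR adjusted p = 8.63e-05), and it was at -0.20 with cytosolic LOV-BirA and 1.46 at the OMM. The ligase in the ER line was itself fused to Sec61β, so footprints of the transgene and of the endogenous gene cannot be told apart, and the deposited coding length covers 19.1% of the reference. By exon counts, with the untranslated regions included, it was at 0.39 and still called. SEC61G, the small tail-anchored subunit of the same channel, was at -0.03 ± 0.11 at the ER and 1.53 at the OMM. In the structural tail-anchored class the highest values belonged to TMEM123 (2.53), QSOX2 (2.29), ULBP3 (2.22), LMAN2 (2.2) and BACE2 (2.12), glycoproteins of the secretory pathway with a single strong segment near the C-terminus. The class rests on hydropathy alone, so it does not show that they are tail-anchored. None of them is in the list of known anchors, where the highest value was 0.69. Of the 49 members of that class with N-terminal hydropathy below 1.6, 6 were enriched and 39 depleted, with a median of -0.66, and of the 14 others 9 were enriched.

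**Figure D4:**
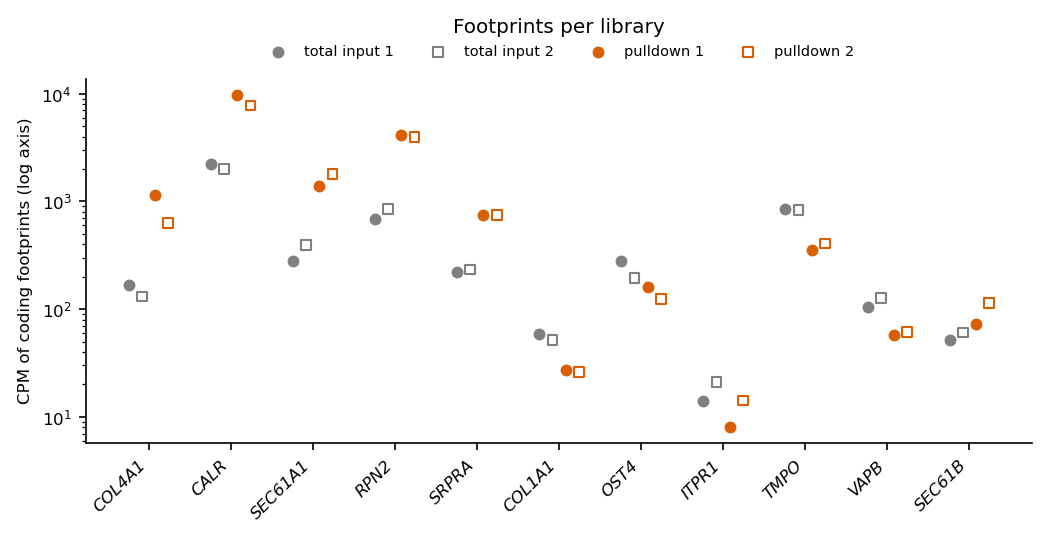
CPM of coding footprints (log axis) of 11 genes in the 2 total inputs (grey) and 2 ER pulldowns (orange), with circles for replicate 1 and squares for replicate 2. COL4A1, CALR, SEC61A1, RPN2, SRPRA and SEC61B are higher in both pulldowns, COL1A1, OST4, TMPO and VAPB lower in both, and ITPR1 overlaps.

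Nuclear-encoded mitochondrial genes varied with the compartment of their product. Inner membrane proteins had 42 of 203 enriched with a median of -0.27, outer membrane proteins 18 of 57 with -0.08, intermembrane space proteins 4 of 39 with -0.54 and matrix proteins 13 of 350 with -0.60. The inner membrane share, 20.7%, was near the 19.8% of all genes. Genes that the study's list places only in a membrane, without saying which, had 15 of 18 enriched with a median of 1.46, and those of unknown place 11 of 63 with -0.57. Under TMM, where 29.7% of all genes were enriched, the enriched counts were 122 of 203 for the inner membrane and 33 of 57 for the outer membrane. They were 9 of 39 for the intermembrane space and 86 of 350 for the matrix. Among the highest were FKBP10 (2.22), a collagen-folding proline isomerase, the peroxiredoxin PRDX4 (2.16), STOM (1.92) and OCIAD1 (1.88). FKBP10 and PRDX4 are known from the ER as well as being listed as mitochondrial. AKAP1, an anchor for protein kinase A with an N-terminal membrane stretch, and the exonuclease EXD2 were enriched at both places. AKAP1 had 69.0 and 66.1 CPM in the total inputs and 246.5 and 228 CPM in the ER pulldowns (1.81 ± 0.10), with 2.31 at the OMM. EXD2 had 18 and 24.6 CPM and 65.0 and 71.2 CPM (1.70 ± 0.13), with 2.95 at the OMM.

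Cytosolic complexes gave a background. With library totals no gene was enriched among 27 proteasome subunits (median -0.67), 25 chaperonin subunits and cytosolic chaperones (-0.92), 18 aminoacyl-tRNA synthetases (-0.91), 12 glycolytic enzymes (-0.69) and 41 splicing and nuclear RNA-binding proteins (-0.98), and 2 of 66 cytosolic ribosomal proteins were, with a median of -0.50. Under TMM the enriched members numbered 7 for the proteasome, 0 for chaperones and synthetases, 1 for glycolysis, 5 for splicing and 24 for ribosomal proteins. Proteins that leave the cell without a signal peptide, such as galectins, had 0 of 8 enriched (2 under TMM) and a median of -0.66. Within the soluble class the median was lower in longer proteins, from -0.38 under 100 residues (82 genes) to -0.88 at 400 to 799 (1717 genes) and -1.27 at 1600 or more (220 genes). With cytosolic LOV-BirA the same bins had medians of -0.27, 0.05 and 0.05, and at the OMM 0.87, -0.63 and -0.94.

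Exceptions ran in both directions. Of the soluble class, 164 genes (3.52%, against 19.8% of all genes) were enriched under both scales, and of the 155 that could be compared with cytosolic LOV-BirA 135 were higher at the ER and none lower. That comparison reuses the ER values by which the genes were chosen, so it is not separate support. The 10 highest of the 164 were COL4A2 (2.51), LAMA4, VCAN, LTBP1, SMOC1, STC2, NDNF, MINPP1, SERPINE2 and LOX, with the lowest of these 10, LOX, at 2.27. All but MINPP1, a phosphatase of the ER lumen, are secreted proteins, and their N-terminal stretches fell short of the limit of 2.3, as the 2.04 of COL4A2 shows. Enrichment in the soluble class followed that measure, with 47 of 137 genes enriched at a hydropathy of 2.0 to 2.3, 34 of 305 at 1.6 to 2.0 and 83 of 4221 below 1.6.

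Those 83 genes included proteins with known ties to the ER. The heme-binding protein PGRMC1 (1.89), the inner nuclear membrane protein TOR1AIP1 (1.69) and the degradation factor FAF2 (1.64) have membrane segments or hairpins that the class rules did not call. PPP1R15B, a cofactor of the phosphatase that reverses phosphorylation of eIF2α, had 64 and 81.4 CPM in the total inputs and 247 and 273 CPM in the pulldowns (1.85 ± 0.10). TACC1, a coiled-coil protein of the centrosome, had 47.7 and 54.3 CPM and then 222 and 194 CPM (2.04 ± 0.12), and it was at 1.21 at the OMM. For both genes the pulldowns lay above the total inputs without overlap.

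In the other direction, 32 of the 1252 genes of the secreted, single-pass and multi-pass classes were depleted under both scales, against 1800 of all 7381. Of the 30 that could be compared, 29 were lower than with cytosolic LOV-BirA, against 62.7% of all genes compared. Here too the comparison reuses the ER values by which the genes were chosen. The lowest of the 32 are mostly known as nuclear or cytosolic proteins. MDN1, a giant ATPase of ribosome assembly, had 340.2 and 532 CPM in the total inputs and 92.1 and 163 CPM in the pulldowns (-1.79 ± 0.10), and UPF1, the helicase of nonsense-mediated decay, had 514 and 440.3 CPM and then 183 and 181 CPM (-1.39 ± 0.09). DMXL1 (-1.53), YTHDC2 (-1.58) and MYCBP2 (-1.38) were similar. SYNE1, with its anchor at the end of 8797 residues, was among the 10 lowest as well.

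Apart from the mitochondrial genome, 15 genes lay below -2. In 10 of the 13 that could be compared the value did not differ detectably from that with cytosolic LOV-BirA, and the median there was -2.44. RPL11, a ribosomal protein, had 151 and 125 CPM in the total inputs and 14.5 and 11.2 CPM in the ER pulldowns (-3.42 ± 0.14), with -3.76 in the cytosol, and the helicase DDX3X was at -3.24 and -3.14. The 15 genes had a median deposited coding length of 25.3% of the reference, against 87.8% over all genes. By exon counts their median moved from 1.52 below that of all genes to 0.37 below it, with RPL11 0.31 above it and DDX3X 0.54 below it. ATP6V1G1, a subunit of the cytosolic sector of the V-ATPase, went from -2.32 to -0.69. MAP1B, a microtubule-associated protein, was different: it had 172 and 249.6 CPM in the total inputs and 34.3 and 68.4 CPM in the pulldowns (-2.10 ± 0.12), which stayed at -1.77 by exon counts, but 0.04 in the cytosol, a difference of -2.14 (95% interval -2.48 to -1.80).

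**Figure D5:**
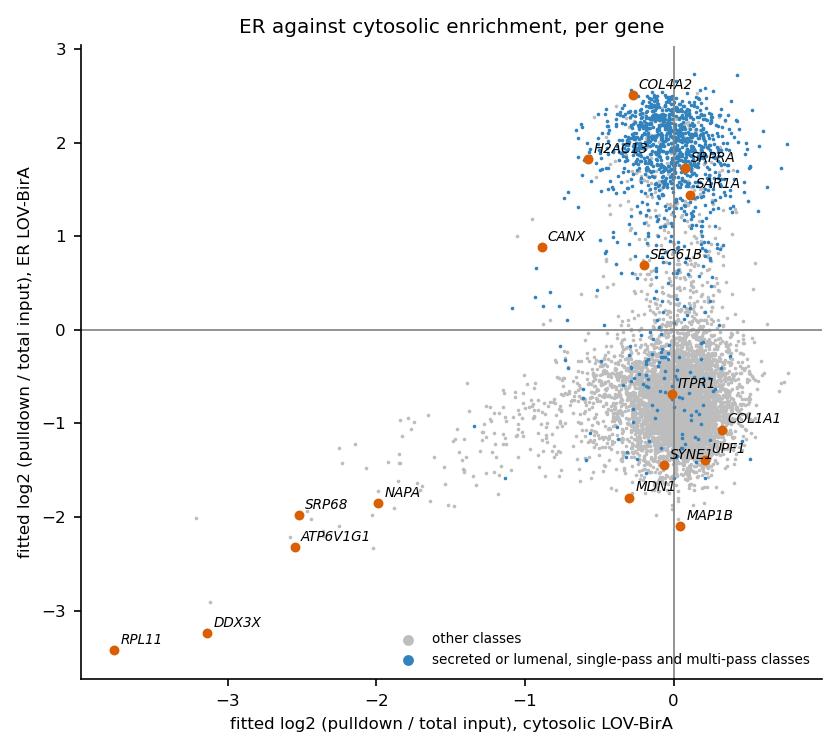
Fitted log2 ratio of pulldown to total input per gene with ER LOV-BirA (vertical) against cytosolic LOV-BirA (horizontal), with secreted or lumenal, single-pass and multi-pass classes in blue, other classes in grey and named genes in orange. Most blue points lie above 1 on the ER axis near 0 on the cytosolic axis, RPL11, DDX3X and ATP6V1G1 are low on both axes, and COL1A1, MDN1 and MAP1B are low on the ER axis alone.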

How the data were processed

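Per the study's methods and the submitters' processing notes, the authors used Bowtie to discard ribosomal and transfer RNA, aligned to GRCh38 by TopHat and counted uniquely placed footprints of 27 to 36 nt. A footprint's weight was shared among its middle bases after trimming 13 nt from either side, and ambiguous positions of the genome were left out. The resulting estimated count of each region was deposited. Deposited RPKM values entered only through their denominators, as another scale. Here coding-sequence counts were rounded to whole numbers and fitted in edgeR 4.0.16 (R 4.3.3, quasi-likelihood, two-sided, Benjamini-Hochberg) over the 12 ribosome profiling libraries, with library size as the coding total, a term per lysate and a pulldown effect for each location. Residual degrees of freedom were 3, with a prior of 14.2. Pulldown and total input come from the same lysate by the study's methods, and within lysates their deviations correlated at 0.736 (ER), 0.532 (OMM) and 0.861 (cytosol). On simulated counts for the ER comparison of 7381 genes, 57.5% of 200 genes changed by log2 0.5 and 99.5% of 200 changed by log2 1 were recovered, with 10 and 15 unchanged genes called.

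Classes used GENCODE 44 proteins, with an N-terminal stretch of 10 residues starting at residues 2 to 26 with a mean of at least 2.3, and segments centred beyond residue 45. A hydrophobic segment lying between these regions could be missed whatever its hydropathy. A single strong segment centred within 40 residues of the end made a protein tail-anchored. Mitochondrial genes were listed from the study's supplement and set apart first. Genes named are the 5 highest and 5 lowest called in each class, the 3 highest and 3 lowest of each list (all of lists of up to 12), the 10 strongest exceptions in each direction, and SEC61B and RPL29. A few genes the rule names are not reported here. Outside that rule, ADGRV1, AKAP1, ARF4, CALR, CELSR1, COPA, EMC10, EMC3, EMC9, EMD, EXD2, FAF2, H2AC13, H2AC21, LBR, LEMD3, PGRMC1, PPP1R15B, RTN3, RTN4, SAR1B, SEC61A1, SRP14, SRP54, SRP72, SRP9, SRPRB, TACC1, TOR1AIP1, UBE2J1 and VAPA were chosen after their values were seen. Members, classes and lists were chosen with earlier results of these data known. Alternatives were TMM, a soluble reference set, DESeq2 1.42.0, other footprint minimums, exon counts, no lysate term, fewer libraries and other class limits. Deposited coding lengths, after masking, had a median of 87.8% of the reference and were under 50% for 22.2% of 7369 genes. Tables and figures used Python 3.11.15, pandas 2.3.3, scipy 1.17.1, Biopython 1.88 and matplotlib 3.10.9.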

Additional observations from a re-analysis of the deposited data

Results flagged for a closer look

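Enrichment differed between locations of the ligase for many genes, by the test of the difference itself. With ER LOV-BirA 1335 genes were higher and 4271 lower than with cytosolic LOV-BirA, and 1239 were higher and 2072 lower than at the OMM. The exceptions listed next were chosen by their ER values, which the difference reuses, so their differences are not separate support. Of the 10 highest soluble exceptions all were higher at the ER than in the cytosol on the log2 scale: COL4A2 by 2.79, NDNF by 2.62, VCAN by 2.79, LTBP1 by 2.45, SMOC1 by 2.36, STC2 by 2.51, MINPP1 by 2.12, LAMA4 by 2.82, SERPINE2 by 2.21 and LOX by 1.97. Among the depleted genes of the secretory classes the ER minus cytosol difference was -1.49 for MDN1, -1.59 for DMXL2, -1.79 for YTHDC2, -1.35 for DMXL1, -1.38 for SYNE1, -1.56 for RUSC2, -0.80 for ZSWIM8, -1.6 for UPF1 and -1.14 for MYCBP2. The median over all genes compared was -0.66, to which ZSWIM8 lay close. AKAP1 was lower at the ER than at the OMM by a difference of -0.49, and EXD2 by -1.25, beside a median of -0.28 over all genes compared.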

How the results depend on the processing

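Enriched genes numbered 1465 with library totals, 3383 when a set of soluble genes fixed the scale, 2225 with a minimum of 10 footprints, 719 with 256 and 2568 with no minimum, and 1408 to 1409 with either replicate left out. Depleted genes numbered 5321 with library totals but 1800 with TMM, 591 with the soluble set, 1483 with DESeq2 and 3270 with a minimum of 256, and 4336 to 4828 with either replicate left out. Depletion of whole classes followed the scale. For TMM, the soluble set and DESeq2 in turn it held for 14.3%, 1.59% and 12.7% of tail-anchored, 34.3%, 12% and 29.3% of weak-segment, 8.32%, 1.64% and 6.14% of nuclear-encoded mitochondrial and 31.4%, 10.2% and 25.8% of soluble genes, against 69.8%, 79.1%, 67.7% and 89.0% with library totals. RPKM denominators gave 36.5% for tail-anchored and 39.8% for mitochondrial genes. Without the replicate block, which ignores the pairing of pulldown and total input, 3244 genes were depleted, with 36.5% of tail-anchored, 50.1% of weak-segment, 28.6% of mitochondrial and 56.4% of soluble genes. Leaving out a replicate, where the lone lysate is assumed to vary like the others, gave 46% to 61.9% for tail-anchored genes. The enriched shares of the 4 secretory classes moved by less than 1.5 times in each alternative, including exon counts and entries of at least 50% coding length, both chosen after seeing the data. Of the single genes named, exon counts reversed 3 relative to the median of all genes, GNAS (0.37), RAB11A (0.01) and RPL11 (0.31). In all, 118 of 146 counts and shares stayed within 1.5 times. Depth limits genes near 64 footprints, and 2 lysates limit every error given.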

Other observations

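Genes for histones, which are soluble nuclear proteins, differed by type. Of 13 genes for H2A other than H2A.Z, 10 were enriched at the ER and 2 depleted under library totals, with a median of 0.75. None of 5 genes for H1, 2 for H2A.Z, 11 for H2B, 9 for H3 and 7 for H4 was enriched on that scale. Their medians were -0.59, -0.23, -1.29, -0.50 and -0.11. Under TMM all 7 genes for H4, both for H2A.Z and 4 for H3 were enriched. Over all genes the median was -0.68, with 19.8% enriched under library totals and 29.7% under TMM. The H2B median was low at the other locations too, -1.20 with cytosolic LOV-BirA and -1.22 at the OMM. H2AC21 had 244 and 265 CPM in the total inputs and 536 and 564 CPM in the pulldowns, a log2 enrichment of 1.11 ± 0.10, beside -0.08 with cytosolic LOV-BirA and -0.08 at the OMM. The ER value exceeded the cytosolic one for 12 of the 13 H2A genes. Genes of 1 histone type are near-identical copies, and footprints that match several copies were left out by the unique alignment. A value therefore rests on the bases that set its copy apart, and H2AC13, the highest at 1.83, rests on 5.90% of its reference coding length.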
